A study of Mus musculus with 6 samples.

Results

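Prostaglandin synthesis in osteoblasts was described here through 10 mouse genes chosen by name: the phospholipase *Pla2g4a*, the cyclooxygenases *Ptgs1* and *Ptgs2*, the terminal synthases *Ptges*, *Ptgis* and *Ptgds*, the receptors *Ptger2* and *Ptger4*, the degrading enzyme *Hpgd*, and *Anxa1*, which encodes annexin A1. Of these, 9 matched 1 row each among the 24016 genes of the deposited table by Ensembl identifier. *Hpgd* matched no row and was not analysed here. The cells were of a subclone of MC3T3-E1, a clonal mouse preosteoblast line labelled WT, so all cultures come from 1 clone and stand for no other osteoblast source. Differentiation in 10 mM β-glycerophosphate with 50 μg/ml ascorbic acid lasted 6 days, after which the medium held vehicle or corticosterone (100 nM), the main glucocorticoid of mice, for 24 h. The labels list calcitriol (10 nM), the active form of vitamin D, for every sample, vehicle included. RNA-seq libraries of 3 biological replicates per group were compared to ask which genes respond to corticosterone in osteoblasts.

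Prostaglandins are made from arachidonic acid, which cytosolic phospholipase A2 (*Pla2g4a*) cuts from membrane phospholipids. A cyclooxygenase (COX-1 from *Ptgs1*, COX-2 from *Ptgs2*) turns it into prostaglandin H2, and terminal synthases then make prostaglandin E2 (*Ptges*), prostacyclin (*Ptgis*) or prostaglandin D2 (*Ptgds*). Osteoblasts make prostaglandin E2 and sense it through G protein-coupled receptors, among them EP2 (*Ptger2*) and EP4 (*Ptger4*), which raise cyclic AMP. *Hpgd* encodes the dehydrogenase that starts prostaglandin breakdown. Annexin A1 is a calcium-dependent phospholipid-binding protein known as a mediator of the anti-inflammatory action of glucocorticoids and as an inhibitor of phospholipase A2, and *Ptgs2* is a textbook gene repressed by glucocorticoids in inflamed tissue.

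The promoters of the 4 members that the comparison turns on are given first, since they show how unlike the sequence before each gene is. Each window runs from 250 bases before to 50 bases after the start of the RefSeq transcript (GRCm38.p6), 5′ to 3′ on the strand of the gene. Capitals mark the motifs found on either strand.
*Ptgs1*, chr2:36230176-36230475, plus strand: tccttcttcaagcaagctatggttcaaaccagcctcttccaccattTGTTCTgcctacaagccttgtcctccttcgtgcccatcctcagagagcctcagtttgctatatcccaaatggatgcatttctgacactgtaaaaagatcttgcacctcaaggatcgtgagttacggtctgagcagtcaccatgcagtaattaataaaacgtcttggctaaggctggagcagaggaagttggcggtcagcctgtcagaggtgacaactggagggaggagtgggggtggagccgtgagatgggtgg
*Ptgs2*, chr1:150099781-150100080, plus strand: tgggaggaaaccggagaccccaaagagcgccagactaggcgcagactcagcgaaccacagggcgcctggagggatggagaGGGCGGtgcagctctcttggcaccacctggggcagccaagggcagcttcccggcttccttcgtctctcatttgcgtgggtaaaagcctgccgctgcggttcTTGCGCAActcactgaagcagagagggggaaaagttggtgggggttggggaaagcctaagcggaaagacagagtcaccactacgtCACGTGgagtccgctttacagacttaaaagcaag
*Ptges*, chr2:30903248-30903547, minus strand: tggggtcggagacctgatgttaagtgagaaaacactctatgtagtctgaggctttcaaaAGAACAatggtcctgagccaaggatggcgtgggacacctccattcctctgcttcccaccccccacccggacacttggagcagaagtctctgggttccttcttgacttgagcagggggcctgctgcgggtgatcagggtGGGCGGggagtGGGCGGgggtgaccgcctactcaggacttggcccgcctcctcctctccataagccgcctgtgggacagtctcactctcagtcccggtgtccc
*Ptger4*, chr15:5244138-5244437, minus strand: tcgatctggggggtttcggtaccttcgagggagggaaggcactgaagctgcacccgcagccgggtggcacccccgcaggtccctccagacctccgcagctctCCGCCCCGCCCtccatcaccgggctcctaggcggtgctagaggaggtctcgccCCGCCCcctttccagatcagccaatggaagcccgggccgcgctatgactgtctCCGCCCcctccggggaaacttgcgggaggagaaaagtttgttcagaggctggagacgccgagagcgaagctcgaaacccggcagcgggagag
Positions are counted from 1 at the first base of the transcript, and the base before it is -1. The capitals in *Ptgs1*, at -204 to -199, are the glucocorticoid half-site TGTTCT. *Ptges* holds the same half-site on the other strand at -191 to -186 and a pair of GC boxes (GGGCGG) at -53 to -48 and -42 to -37. *Ptgs2* has a GC box from -170 to -165, the C/EBP core TTGCGCAA from -69 to -62, and an E-box (CACGTG) from 17 to 22. The capitals in *Ptger4* are 4 GC boxes read on the other strand, of which the first 2 overlap by 1 base.

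Among the 32851 mouse promoter windows of this length, 18.97% held the half-site, 35.66% a GC box, 7.15% the E-box and 0.183% the C/EBP core, so the half-sites and GC boxes are common letters. No member window held the cyclic AMP response element TGACGTCA, present in 1.79% of windows, or the full palindromic glucocorticoid response element, present in 3 of all windows. *Ptger4* had the highest GC content of the 4, 67.0% with 25 CpG dinucleotides, against a median of 52.7% and 7 over all windows. *Ptgs1* had 50.7% and 6, *Ptgs2* 59.3% and 16, and *Ptges* 60.0% and 10. The window of *Anxa1* (chr19:20390622-20390921, minus strand) held a TATA box (TATAAA, in 13.62% of windows) at -32 to -27. The half-site was also found in members whose windows are not printed. *Pla2g4a*, which fell, held it at -221 to -216 in the window chr1:149922390-149922689, which lies inside the gene. Its other window, chr1:149961241-149961540, at the annotated start of the gene, held no half-site. *Ptger2* held the half-site at -52 to -47 and at 11 to 16. The window of *Anxa1*, which rose, held no half-site. Whether the half-site bears on any change was not tested. A match describes letters in these windows and is not a binding site.

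Each deposited value is a number of reads that the authors had scaled by 1 factor for its library, here called a normalized count. Between 16020401 and 25638645 reads were counted on genes per library. The vehicle libraries, with 19076586 reads or more, were all deeper than the corticosterone libraries, with 18992332 or fewer, and 1 read was worth 0.772 to 1.28 normalized counts. All 10 osteoblast markers had a row, and their summed normalized counts were 1359437 to 1405866 with vehicle. Most of that sum was *Col1a1*, *Col1a2* and *Spp1*, with vehicle means of 709237, 560839 and 102650. *Sp7* and *Bglap* had vehicle means of 665 and 232. With corticosterone the sum was 1183453 to 1239118, 8 of the 10 markers fell, *Spp1* rose, and *Dmp1* did not pass the test. The glucocorticoid targets *Tsc22d3*, *Fkbp5*, *Per1* and *Sgk1* all rose, by 1.49 to 2.75 on the log2 scale, which checks the treatment labels. Of 5 adipocyte markers, *Fabp4* rose from a mean of 14.8 to 121 normalized counts (log2 fold change 3.05), *Plin1* had at most 2 reads and *Adipoq*, *Cidec* and *Lep* matched no row. Of 6 macrophage markers 3 had a row, their sum was 125 to 151 with vehicle and 127 to 145 with corticosterone, and none passed limma at an adjusted or an unadjusted p under 0.05, edgeR or DESeq2. Of 5 chondrocyte markers, *Col2a1* fell (log2 fold change -0.80) and *Col10a1* rose (0.72). *Matn1* had at most 2 reads, and *Acan* and *Col9a1* matched no row. Of 5 osteoclast markers, only *Ctsk* was called, and it fell (-0.36). *Acp5*, *Calcr* and *Oscar* had at most 4, 6 and 8 reads, and *Ocstamp* matched no row. The vehicle means of *Col2a1*, *Ctsk* and *Col10a1* were 1297, 1852 and 58.0 normalized counts, the first 2 above those of *Sp7* and *Bglap*. The 2 endothelial markers with a row had at most 9 reads. The part of these shifts in the members' values was not tested, and in such bulk samples fewer cells of a type and less RNA per cell cannot be told apart.

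Genes along the route to prostaglandin E2 moved in both directions with corticosterone. *Ptgs1* and *Ptges* rose 1.81-fold and 1.54-fold, *Pla2g4a* fell to 0.805 of its vehicle mean, the receptor *Ptger4* fell to 0.341 and *Ptgis* to 0.423, while *Ptgs2* did not pass the test. *Anxa1* rose 1.15-fold. A gene was called at an adjusted p under 0.05 in limma, fitted on log2(normalized count + 1) over the 19817 genes with a mean of at least 1, and log2 fold changes are corticosterone minus vehicle on that scale, which understates the change of low genes. Of the 10 members 7 were tested, and *Ptgds* and *Ptger2* were below this mean. Of these 7, 3 were higher, beside 11.0% of all genes tested, 3 were lower, beside 10.7%, and 1 was not called. The study also required an absolute log2 fold change over 1, which 0 members passed upward (1.74% of genes did; 0 at an unadjusted p under 0.05 and 0 in edgeR or DESeq2) and 2 passed downward (1.76% did), *Ptgis* and *Ptger4*. In edgeR 2 passed downward, and in DESeq2, the tool of the study, only 1, *Ptger4*. The median log2 fold change was -0.06 over the 7 members and -0.00 over all genes tested. In 3 members every corticosterone library was above every vehicle library, as in 17.5% of genes, and in 3 every one was below, again as in 17.5% of genes. A two-sided exact permutation test of 3 against 3 libraries cannot give a p under 0.1, the value these 6 members reached.

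**Figure D1:**
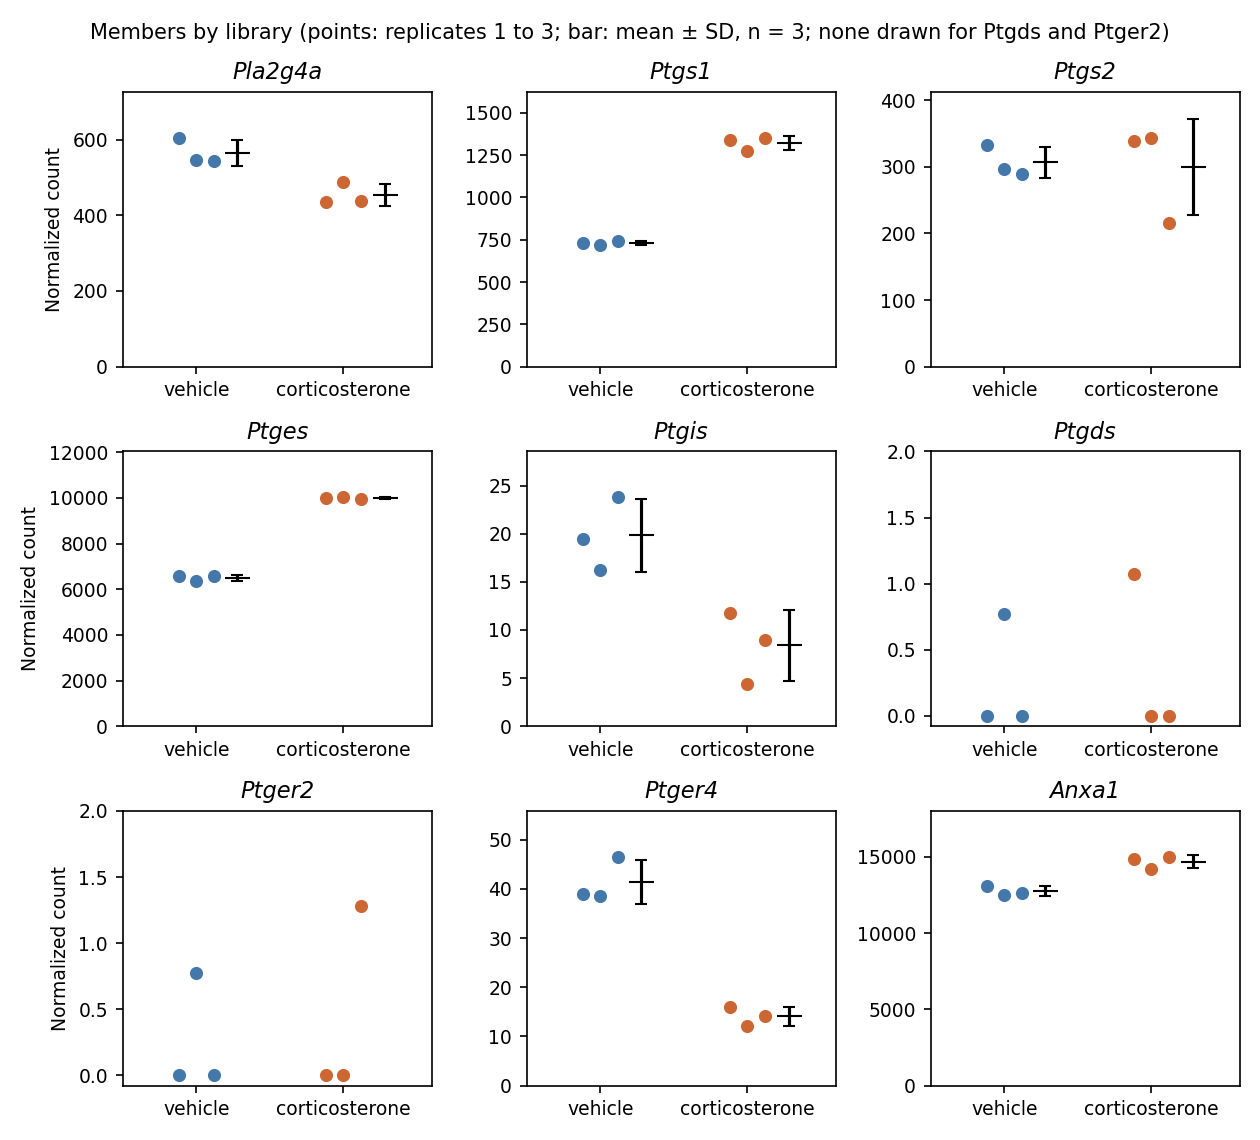
Normalized counts (vertical axes, linear) of the 9 members with a row, 1 point per library, with the mean ± SD of 3 libraries beside the points except for *Ptgds* and *Ptger2*. *Ptgs1*, *Ptges* and *Anxa1* are higher and *Pla2g4a*, *Ptgis* and *Ptger4* lower in all 3 corticosterone libraries, and *Ptgs2* has 1 low corticosterone library at 216.2.

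The substrate step was measured by *Pla2g4a* (ENSMUSG00000056220, chr1:149829618-149961290, minus strand, GRCm38, 20 exon blocks). Its normalized counts were 604.9, 545.7 and 543.0 with vehicle and 435.8, 488.2 and 438.8 with corticosterone. All 3 corticosterone libraries were below the lowest vehicle library. The mean fell from 564.5 ± 35.0 to 454.2 ± 29.4 (SD, n = 3), a log2 fold change of -0.31 (SE 0.08, 95% interval -0.47 to -0.16, limma adjusted p = 0.00376). Without the variance trend the limma adjusted p was 0.0745.

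The arachidonate release list held 21 other genes, of phospholipases A2 in the wide sense and of arachidonic acid handling. Of these 15 had a row and 11 were tested. Among the 11, 5 rose, beside 11.0% of all genes tested, 6 were not called and none fell. No fall passed at an unadjusted p under 0.05 either, and edgeR and DESeq2 also gave 0 that fell. *Pla2g5*, a secreted calcium-dependent phospholipase A2, had 58.4, 33.2 and 40.3 normalized counts with vehicle and 112, 101 and 114 with corticosterone, so its groups were well apart, and its log2 fold change was 1.33 (SE 0.20, limma adjusted p = 2.91e-05). *Pla2g7*, which encodes the secreted hydrolase of platelet-activating factor, rose from 476.5 ± 25.3 to 856.6 ± 26.5 (log2 fold change 0.85). *Pla2g12a*, another secreted phospholipase A2, rose by 0.75 and *Acsl4*, which couples arachidonic acid to coenzyme A and so competes for free substrate, rose from 876.7 ± 67.6 to 1425 ± 8.85, or by 0.70. *Pla2g16* rose by only 0.16 (limma adjusted p = 0.0339). Its call was lost without the variance trend (limma adjusted p = 0.187), on leaving out vehicle replicate 1 or 2 or corticosterone replicate 1 or 3, with limma adjusted p from 0.0503 to 0.181, and on scaling to the same total or the upper quartile (0.120 and 0.326). The most abundant genes not called were *Plaa* (log2 fold change -0.02), *Pla2g15* (0.15) and *Pla2g6* (0.11). The median over the 11 tested was 0.15, beside -0.00 over all genes tested.

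The cyclooxygenases differed from each other. *Ptgs1* (ENSMUSG00000047250, chr2:36230426-36252272, plus strand, 11 exon blocks) had 729.8, 720.9 and 741.6 normalized counts with vehicle and 1341.5, 1276.8 and 1352.2 with corticosterone. The spread within each group was small beside the gap between them. The mean rose from 730.8 ± 10.4 to 1323.5 ± 40.8, a log2 fold change of 0.86 (SE 0.06, 95% interval 0.74 to 0.97, limma adjusted p = 1.08e-10), and stayed between 0.79 and 0.88 under 18 alternatives. These values rest on 717 to 1253 reads per library. On the opposite strand the annotated transcript *Gm43621* covers 3.81% of the exonic bases of *Ptgs1* and rose from 1.40 to 9.29 normalized counts (log2 fold change 2.08, limma adjusted p = 0.00711). Whether counting used the strand is not given in the sources used here, so reads in that stretch cannot be told apart. *Gm43621* itself reached at most 11.5 normalized counts.

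*Ptgs2* (ENSMUSG00000032487, chr1:150100031-150108227, plus strand, 11 exon blocks), the inducible cyclooxygenase, had 332.5, 297.2 and 289.6 normalized counts with vehicle and 339.4, 343.5 and 216.2 with corticosterone. The groups overlapped, with 2 corticosterone libraries above and 1 below every vehicle library. The means were 306.4 ± 22.9 and 299.7 ± 72.3, and the log2 fold change was -0.06 (SE 0.13, limma adjusted p = 0.822, exact two-sided permutation p = 1). Its 95% interval of -0.33 to 0.21 spans 0.793-fold to 1.16-fold, and a fall to below 0.793-fold lies outside it. That bound holds for this fit only, since without the variance trend the SE was 0.21 in place of 0.13. The low library, corticosterone replicate 3, had 169 reads, and its exact 95% Poisson interval of 184.8 to 251.4 normalized counts, which covers counting error only, lay below those of the other libraries, the lowest of which began at 256.7. In that library *Ptgs2* deviated from its group mean by -0.44 on the log2 scale, whereas *Ptgs1*, *Ptges* and *Anxa1* deviated by 0.03, -0.00 and 0.03. Without corticosterone replicate 3 the log2 fold change was 0.16 (limma adjusted p = 0.322), the other direction and again not called.

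Per kilobase of exon, the scale on which levels of different genes can be set side by side, *Ptgs1* was already the more abundant cyclooxygenase with vehicle, at 188 normalized counts per kb against 66.9 for *Ptgs2*, and with corticosterone the levels were 341 and 65.4. The share of *Ptgs1* in the sum of both per kb was 72.1, 74.1 and 75.1% with vehicle and 82.3, 81.4 and 88.1% with corticosterone. Every corticosterone library was above every vehicle library, with means of 73.8% ± 1.52 and 83.9% ± 3.60. The log2 ratio of *Ptgs2* to *Ptgs1*, which does not depend on the size factor of a library beyond the added 1, was lower with corticosterone by a difference of -0.92 (exact two-sided permutation p = 0.1, the smallest possible, and 0.1 after adjustment over 3 ratios). As a linear ratio it went from 0.420 ± 0.033 to 0.228 ± 0.059. Without corticosterone replicate 3 the log2 difference was -0.68.

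**Figure D2:**
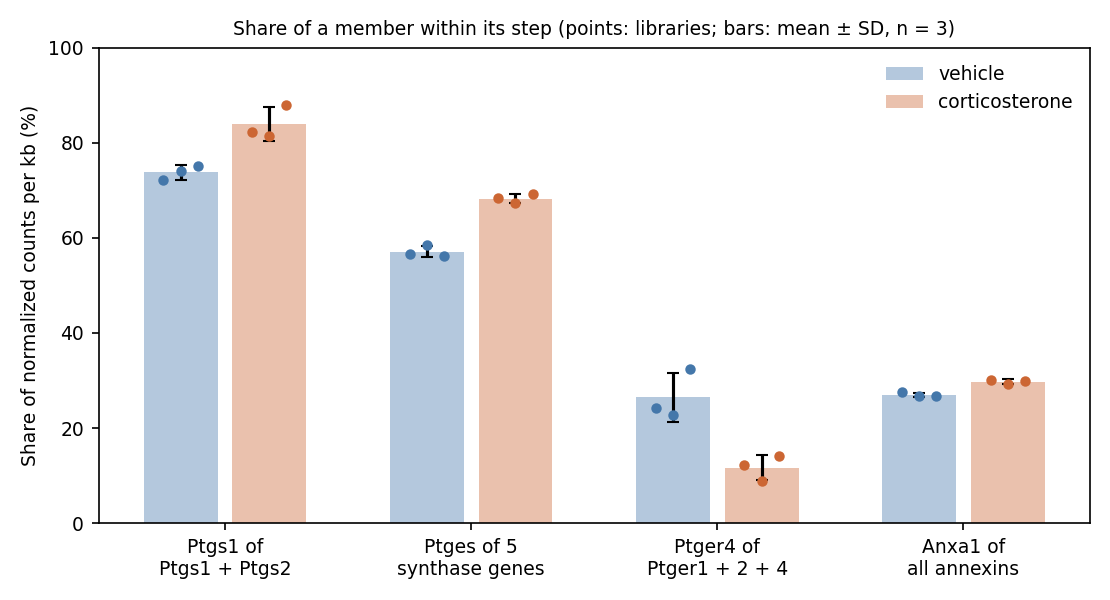
Share of normalized counts per kb (vertical axis, percent from 0 to 100) that a member holds in the sum of its step, with bars for the mean, lines for the SD of 3 libraries and points for single libraries. The groups do not overlap in any of the 4 shares: *Ptgs1* and *Ptges* take a larger share with corticosterone, *Ptger4* a smaller one, and *Anxa1* goes from 27.0% to 29.8% of the annexins.

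At the terminal step *Ptges* (ENSMUSG00000050737, chr2:30889471-30929863, minus strand, 6 exon blocks), the inducible microsomal prostaglandin E synthase, was the most abundant synthase per kb, at 1654 normalized counts per kb with vehicle against 1128 for *Ptges3*. Of the runs of 31 bases in *Ptges3* transcripts, 20.9% also occurred in transcripts of other genes, against 0.357% for *Ptges*. How reads with more than 1 match were counted is not given in the sources used here. The normalized counts of *Ptges* were 6584.4, 6349.0 and 6573.3 with vehicle and 10005.2, 10027.5 and 9967.0 with corticosterone. The 3 corticosterone libraries were nearly equal and all were above the vehicle libraries. The mean rose from 6502.2 ± 133 to 9999.9 ± 30.6, a log2 fold change of 0.62 (SE 0.04, 95% interval 0.54 to 0.70, limma adjusted p = 2.98e-11), and all 18 alternatives kept the call, with values from 0.52 to 0.63.

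*Ptgis* (ENSMUSG00000017969, chr2:167191805-167240604, minus strand, 11 exon blocks), the prostacyclin synthase, was at the low end. Its normalized counts were 19.5, 16.2 and 23.8 with vehicle and 11.8, 4.42 and 8.96 with corticosterone, from 21 to 24 and 4 to 11 reads. The groups were apart, but by few reads. The mean fell from 19.8 ± 3.80 to 8.38 ± 3.71, a log2 fold change of -1.22 (SE 0.41, 95% interval -2.07 to -0.37, limma adjusted p = 0.0349). The direction held under every alternative, while the call did not. The adjusted p was 0.0526 in limma with no filter, 0.104 in limma without the variance trend and 0.114 in DESeq2. Leaving out vehicle replicate 1 or 3 gave a limma adjusted p of 0.0892 or 0.147, and leaving out corticosterone replicate 2 or 3 gave 0.145 or 0.0512.

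*Ptgds* (ENSMUSG00000015090, chr2:25466709-25470046, minus strand), the lipocalin-type prostaglandin D synthase, had 1 read in vehicle replicate 2, 1 read in corticosterone replicate 1 and 0 reads in the other 4 libraries. A floor of 3 reads is 2.43 to 3.84 normalized counts in those libraries. The exact 95% Poisson interval of a count of 0 there reached up to 2.99 to 4.72 normalized counts. No difference was detectable at this depth.

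Other terminal synthases had 0 calls, beside 11.0% higher and 10.7% lower over all genes tested. Of 8 genes 7 had a row and were tested, and none passed in either direction in limma. At an unadjusted p under 0.05 in limma 1 was higher, and edgeR and DESeq2 called 0 of 5 and 0 of 6. The most abundant were *Ptges3*, the cytosolic prostaglandin E synthase also known as the chaperone p23, at 2500 ± 177 and 2352 ± 108 (log2 fold change -0.09), *Akr1b3*, an aldo-keto reductase, at 2153 ± 52.9 and 2184 ± 22.1 (0.02), and *Ptges2*, at 540.1 ± 38.6 and 605.1 ± 46.9 (0.16). Within *Ptges*, *Ptges2*, *Ptges3*, *Ptgis* and *Ptgds*, the share of *Ptges* per kb was 56.6, 58.5 and 56.3% with vehicle and 68.3, 67.3 and 69.2% with corticosterone. The means were 57.1% ± 1.21 and 68.3% ± 0.98, with no overlap (exact two-sided permutation p = 0.1). The log2 ratio of *Ptges* to *Ptgis* was higher with corticosterone by 1.84 (exact two-sided permutation p = 0.1, adjusted 0.1), or a linear 319 ± 52.0 against 1212 ± 564, with 4 to 11 reads of *Ptgis* behind the second.

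Among the receptors, *Ptger4* (ENSMUSG00000039942, chr15:5206661-5244187, minus strand, 5 exon blocks), which encodes EP4, had the largest log2 fold change of the members. Its normalized counts were 38.9, 38.6 and 46.6 with vehicle and 16.1, 12.2 and 14.1 with corticosterone, from 45 to 50 and 11 to 15 reads. The groups were far apart beside their spread. The mean fell from 41.4 ± 4.50 to 14.1 ± 1.96, a log2 fold change of -1.49 (SE 0.29, 95% interval -2.09 to -0.90, limma adjusted p = 0.000443). All 18 alternatives kept the call, with values from -1.58 to -1.28. Other genes on the opposite strand share 16.5% of the exonic bases of *Ptger4*, chiefly *Ttc33*, which was at 312.1 ± 16.7 and 284.6 ± 24.7 (log2 fold change -0.13, limma adjusted p = 0.361), and reads in the shared stretch cannot be told apart without strand.

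*Ptger2* (ENSMUSG00000037759, chr14:44988195-45003820, plus strand), which encodes EP2, had 1 read in vehicle replicate 2, 1 read in corticosterone replicate 3 and 0 in the other 4, so EP4 was the more abundant of the pair in every library. The log2 ratio of *Ptger4* to *Ptger2* was lower by a difference of -1.61 (exact two-sided permutation p = 0.1, adjusted 0.1), a value that rests on the 1 added to a *Ptger2* count of 0. *Ptger1*, the gene of the calcium-coupled receptor EP1, was at 95.6 ± 14.1 and 89.0 ± 17.7 (log2 fold change -0.11). Of the sum of *Ptger1*, *Ptger2* and *Ptger4* per kb, *Ptger4* held 24.1, 22.8 and 32.4% with vehicle and 12.2, 8.85 and 14.1% with corticosterone, with no overlap and means of 26.5% ± 5.22 and 11.7% ± 2.65.

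Of 8 genes in the wider prostanoid receptor list, which includes *Ptger1* and the receptor partner *Ptgfrn*, 6 had a row and were tested. Of these, 2 fell, beside 10.7% of all genes tested, and none rose, beside 11.0%. No rise passed at an unadjusted p under 0.05, in edgeR or in DESeq2. *Ptgfr*, the prostaglandin F receptor, had 932.5, 1028 and 1092 normalized counts with vehicle and 785.9, 880.3 and 775.3 with corticosterone, 3 values below all of vehicle, with a log2 fold change of -0.32 (SE 0.07, limma adjusted p = 0.00118). *Ptgfrn*, whose product binds that receptor and lowers its ligand binding, fell from 1171 ± 69.8 to 914.9 ± 76.1 (log2 fold change -0.36, limma adjusted p = 0.000285). Without the variance trend the limma adjusted p was 0.0954 and 0.0718. The prostacyclin receptor *Ptgir* was at 20.0 ± 3.11 and 15.2 ± 11.9 and the thromboxane receptor *Tbxa2r* at 12.5 ± 4.33 and 9.54 ± 3.45, neither called.

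The 3 genes whose log2 values followed those of *Ptger4* most closely over the 6 libraries, among 13879 compared, were *Crocc2* (Pearson r = 0.999), *Me2* (0.998) and *Dmwd* (0.997). All 3 were lower with corticosterone in every library, at means of 245.6 against 360.5, 334.7 against 419.9 and 1152.8 against 1310.6. The 6 points share the treatment contrast, and 1299 genes had an r over 0.9 with *Ptger4*, so this is a description.

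**Figure D3:**
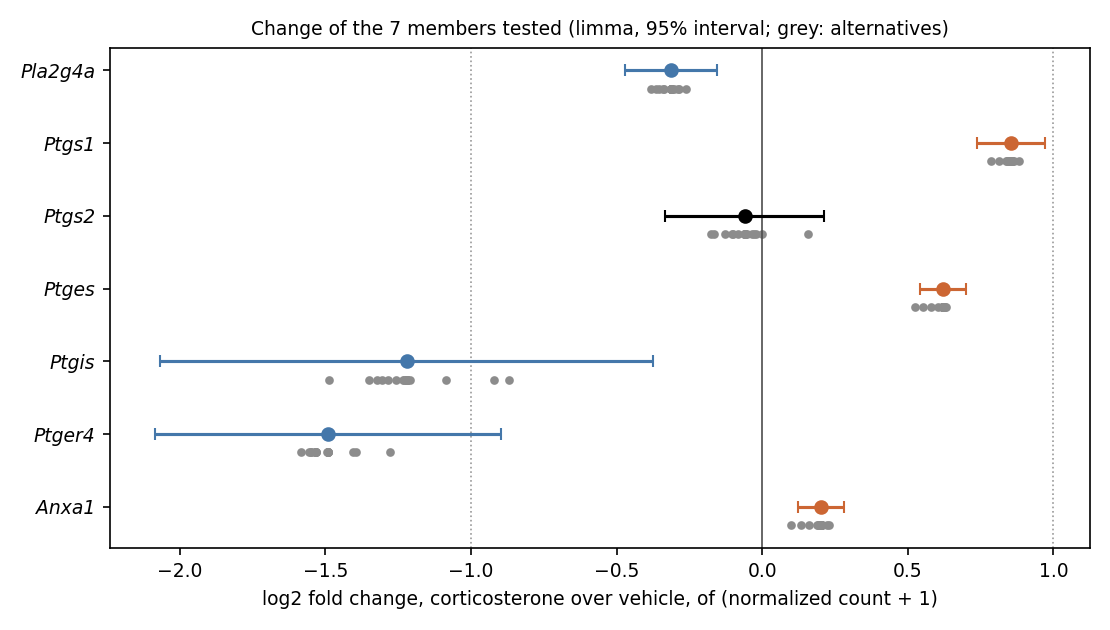
Log2 fold change of log2(normalized count + 1), corticosterone over vehicle (horizontal axis), for the 7 members tested, as the limma estimate with its 95% interval. Orange marks called higher, blue called lower and black not called, grey points are the estimates under each alternative and dotted lines mark -1 and 1. Only the interval of *Ptgs2* crosses 0, and the intervals of *Ptgis* and *Ptger4*, the members with few reads, are the widest.

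*Hpgd* aside, 7 genes of prostaglandin transport and breakdown had a row and were tested. Of these, 3 rose, beside 11.0% of all genes tested, and 2 fell, beside 10.7%. *Abcc4*, an exporter of prostaglandin E2, had 469.5, 419.9 and 452.0 normalized counts with vehicle and 669.2, 725.6 and 713.8 with corticosterone, all above the vehicle range, with a log2 fold change of 0.65 (SE 0.07, limma adjusted p = 2.94e-07). *Slco3a1*, an organic anion transporter, rose from 187.6 ± 11.8 to 272.3 ± 27.7 (0.53), and *Zadh2*, a prostaglandin reductase, from 943.4 ± 30.9 to 1323 ± 40.7 (0.49). *Ptgr1*, another prostaglandin reductase, fell from 682.8 ± 20.4 to 546.9 ± 18.1 (log2 fold change -0.32, limma adjusted p = 0.000884). *Slco2a1*, the prostaglandin uptake transporter, fell from 9.90 ± 3.06 to 2.96 ± 1.53 normalized counts (log2 fold change -1.50, limma adjusted p = 0.0451), with 1 to 14 reads per library. Its call was lost without vehicle replicate 2 or 3 or corticosterone replicate 2 or 3, with limma adjusted p from 0.0617 to 0.178, without the variance trend (0.0841), with no filter (0.0593), with a pseudocount of 0.1 (0.0694) and in DESeq2 (adjusted p = 0.159). *Cbr3* (0.14) and *Ptgr2* (0.26) were not called.

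*Anxa1* (ENSMUSG00000024659, chr19:20373428-20390944, minus strand, 15 exon blocks) was the most abundant member. Its normalized counts were 13122.5, 12525.9 and 12639.8 with vehicle and 14876.6, 14203.5 and 15011.3 with corticosterone. The lowest corticosterone library was above the highest vehicle library. The mean rose from 12762.7 ± 317 to 14697.1 ± 433, a log2 fold change of 0.20 (SE 0.04, 95% interval 0.12 to 0.28, limma adjusted p = 0.000336). The size of this small rise depended on the scaling: it was 0.14 with upper-quartile scaling and 0.10 with quantile normalization (limma adjusted p = 0.0394 and 0.0498), and without the variance trend the limma adjusted p was 0.0801.

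The rest of the annexin family did not move together. Of 11 other annexin genes 10 had a row and were tested. Of these, 2 rose, beside 11.0% of all genes tested, and 4 fell, beside 10.7%. The median log2 fold change of the 10 was -0.14. *Anxa3* had 835.2, 920.0 and 894.7 normalized counts with vehicle and 1467, 1367 and 1520 with corticosterone, well apart, with a log2 fold change of 0.72 (SE 0.06, limma adjusted p = 4.26e-09). *Anxa2*, which forms a heterotetramer with the product of *S100a10*, fell from 9289 ± 102 to 7706 ± 177 (-0.27), and *S100a10* fell from 2711 ± 51.1 to 2105 ± 78.4 (-0.36). *Ahnak*, a large scaffold that binds this complex, rose by 0.19, a call lost under upper-quartile scaling (limma adjusted p = 0.0892) and quantile normalization (0.196). *Anxa8* fell from 183.9 ± 33.1 to 119.2 ± 16.3 (-0.61). Without the variance trend the limma adjusted p was 0.1003 for *Anxa8* and 0.116 for *Ahnak*.

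The remaining annexin calls were small. *Anxa5* rose by 0.13, and its limma adjusted p was 0.0636 when scaled to the same total and 0.380 and 0.224 with upper-quartile scaling and quantile normalization. *Anxa6* and *Anxa7* had log2 fold changes of -0.12 and -0.15. The call of *Anxa6* was lost without vehicle replicate 3 or corticosterone replicate 1 or 2 (limma adjusted p from 0.0876 to 0.138), and that of *Anxa7* without any of the libraries except vehicle replicate 1 (0.0530 to 0.118). Without the variance trend the calls of *Anxa5*, *Anxa6* and *Anxa7* were lost too (limma adjusted p = 0.144, 0.204 and 0.142). *Anxa4* (0.01), *Anxa11* (0.21) and *Anxa9* (-0.44) were not called. Per kb, *Anxa1* made up 27.5, 26.8 and 26.7% of the 11 annexins with vehicle and 30.2, 29.3 and 29.9% with corticosterone, which do not overlap (exact two-sided permutation p = 0.1).

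Annexin A1 signals through some members of the formyl peptide receptor family. Of the genes of this family listed, *Fpr1* had 0 to 4 reads per library and was not called. *Fpr2*, *Fpr3*, *Fpr-rs3* and *Fpr-rs4* matched no row. *S100a11*, whose product binds annexin A1, was at 5448 ± 145 and 5099 ± 249 (log2 fold change -0.10, limma adjusted p = 0.133).

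**Figure D4:**
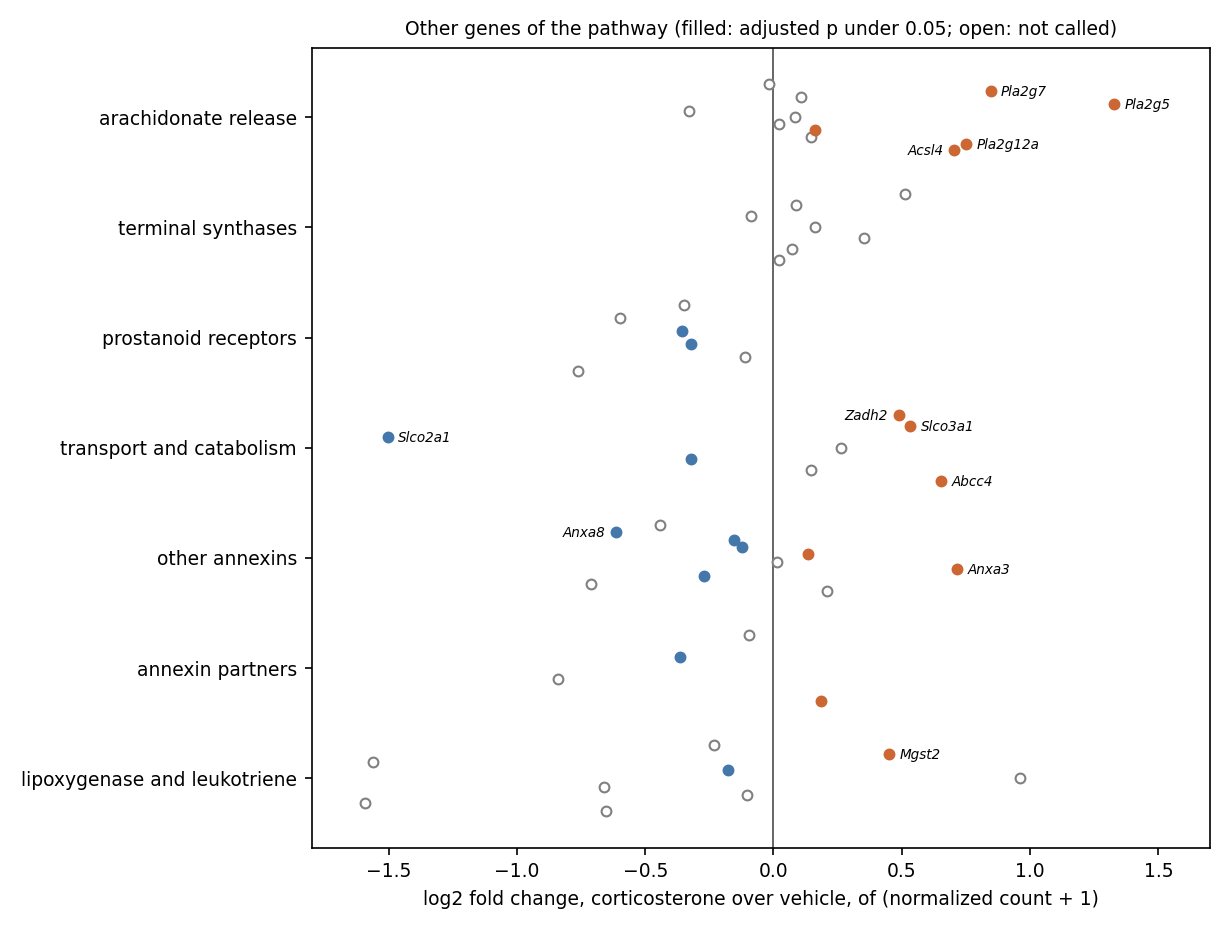
Log2 fold change of log2(normalized count + 1), corticosterone over vehicle (horizontal axis), of the 54 tested genes of 7 lists of related genes, 1 point per gene and 1 line per list, filled where the limma adjusted p is under 0.05. Of these, 12 are higher and 10 lower, beside 11.0% and 10.7% of all genes tested, and 32 are not called. In the arachidonate release list, which includes *Acsl4* and *Pla2g7*, the called genes lie right of 0. *Pla2g4a*, a member that was called lower, is not in that list.

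In order of level per kb with vehicle, *Anxa1* stood at 4384 normalized counts per kb, followed by *Ptges* at 1654, *Ptgs1* at 188, *Pla2g4a* at 88.3 and *Ptgs2* at 66.9. *Ptgis* at 7.72 ± 1.48 and *Ptger4* at 6.22 ± 0.68 did not differ beyond their spread, and *Ptgds* and *Ptger2* were below 1. With corticosterone the order was the same from *Anxa1* (5049) through *Ptges* (2544) to *Ptgs1* (341). *Pla2g4a* at 71.1 ± 4.61 and *Ptgs2* at 65.4 ± 15.8 then no longer differed beyond their spread, nor did *Ptgis* at 3.27 ± 1.45 and *Ptger4* at 2.12 ± 0.29.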

How the data were processed

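RNA of differentiated MC3T3-E1 cultures (3 vehicle, 3 corticosterone) had been sequenced commercially by the study. The authors deposited 1 non-negative signal per gene and library, named FPKM. These values were whole multiples of 1 step per library for 100% of entries (tolerance 0.01 reads), as reads scaled by 1 factor per library are, and the reads were recovered from the steps. The submitters' processing notes name mm10. The aligner, counting program, annotation and strand setting are not given in the sources used here.

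The members and the other gene lists were chosen with earlier results of these data known. limma 3.58.1 (lmFit, eBayes with a variance trend; R 4.3.3) was run on log2(value + 1) for every gene whose mean reached 1, and p-values were adjusted by Benjamini-Hochberg over these genes. A gene was called at an adjusted p under 0.05, and the threshold of the study adds an absolute log2 fold change over 1. Members, shares and ratios were compared with two-sided exact permutation tests, and Poisson intervals are exact. The depth was 16020401 to 25638645 reads per library. The floor of 3 reads is 2.32 to 3.84 normalized counts and covers counting error only. Named genes are the members, the called genes of each list with up to 3 others of highest mean, the treatment check, markers as counts, and the 3 genes most correlated with the member of largest change. Markers named singly, genes that overlap a member and *Alox5* were added after their values were seen.

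The alternatives changed the pseudocount (0.1, 5), the minimum mean (none, 10), the variance trend (none) and the scaling (same total, upper quartile, quantile), and added the replicate block, edgeR 4.0.16 (quasi-likelihood, TMM, filterByExpr) with and without the block and DESeq2 1.42.0 on recovered reads, and leaving out each library. Both groups carry replicate numbers 1 to 3 in their titles, with nothing said of pairing. The fits were tested on simulated data. No library was a copy of another: the smallest chi-square per degree of freedom between 2 libraries of a group was 3.38. Symbols, coordinates and exon lengths came from GENCODE for GRCm38, which is mm10, and matched 23983 identifiers. RefSeq promoter windows (GRCm38.p6) were found for 9 members, and none for *Ptgis*. Scripts used Python 3.11.15, pandas 2.3.3 and matplotlib 3.10.9.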

Additional observations from a re-analysis of the deposited data

How the results depend on the processing

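Of 255 alternative values, 241 were close to those reported, meaning that a member kept its direction and its side of the threshold, a ratio its direction, and a count stayed within 1.5 times. The count of members called lower was 2 in place of 3 with no filter, in DESeq2 and in 4 of the fits without 1 library, each time for the loss of *Ptgis*. *Ptgs1*, *Ptges* and *Ptger4* kept their calls under all 18 alternatives. The exception in direction was *Ptgs2* without corticosterone replicate 3 (log2 fold change 0.16), with -0.17 to 0.16 over the fits that left out 1 library. Without a variance trend, limma called 1171 genes higher and 981 lower in place of 2181 and 2113, and 1 member lower in place of 3. *Pla2g4a* (-0.31), *Anxa1* (0.20) and *Ptgis* (-1.22) then no longer passed. *Ptgis* also no longer passed with no filter (-1.22) and in DESeq2 (-1.23), and leaving out 1 library gave -1.49 to -0.87. Upper-quartile scaling called 1452 genes higher, or 33.92% of calls, against 50.79% in the fit reported and 40.0% with the same total per library. These scalings moved the median log2 fold change of all genes to -0.07 and -0.05, and no member turned. The cause of these changes was not tested. Among 393 values for single genes of the wider lists, 357 kept their call and 36 no longer passed, all in the same direction.

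The fit with the replicate block called 2292 genes higher and 2236 lower and changed no call of a member. Deviations of same-numbered libraries correlated at r = -0.021, 0.014 and 0.021 over 13880 genes. Taken from means of 3 libraries, such deviations cannot settle whether same-numbered cultures were paired. The planned ratio of *Ptgs2* to *Hpgd* was not run, since *Hpgd* matched no row. Depth limits *Ptgds* and *Ptger2*, at 0 or 1 read, and leaves *Ptgis* and *Ptger4* with 4 to 50 reads.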

Other observations

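The other branch of arachidonic acid metabolism, the lipoxygenases and leukotriene genes, was mostly at the limit of detection. Of 16 genes 13 had a row and 9 were tested, with a median log2 fold change of -0.23. Of these 9, 1 rose, beside 11.0% of all genes tested, and 1 fell, beside 10.7%. *Mgst2*, a microsomal glutathione transferase that can make leukotriene C4, had 497.9, 426.8 and 467.5 normalized counts with vehicle and 593.1, 630.7 and 678.0 with corticosterone. Its groups did not overlap, and its log2 fold change was 0.45 (SE 0.08, limma adjusted p = 0.000113). *Lta4h*, the leukotriene A4 hydrolase, fell from 1713 ± 50.7 to 1513 ± 20.6 (SD, n = 3), a log2 fold change of -0.18 (limma adjusted p = 0.0105). Without the variance trend its limma adjusted p was 0.0977. *Alox5*, the gene of the lipoxygenase that starts leukotriene synthesis, had 0 to 4 reads per library, with 3.24, 2.32 and 3.10 normalized counts with vehicle and 0, 1.10 and 0 with corticosterone. It was not called (limma adjusted p = 0.118). Its partner *Alox5ap* was at 35.9 ± 7.99 and 34.1 ± 12.6, and *Mgst3* at 151.9 ± 9.60 and 130.0 ± 20.3, neither called.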
